A study of Mus musculus with 7 samples.

Results

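The MYC, MAX and MXD network is a family of transcription factors that bind DNA in pairs, and 10 of its genes were followed in mouse Group 3 medulloblastoma (G3 MB), an aggressive cerebellar tumor that in this model is driven by Myc. The genes were Myc, Mycn, Max, Mxd1, Mxd3, Mxd4, Mxi1, Mnt, Mga and Mlx, taken by symbol from the 34592 rows of the gene count table. All 10 passed the filter on low counts, which left 17389 rows for testing.

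MYC and MYCN activate transcription as pairs with MAX on E-box sequences, where they recruit acetyltransferases and elongation factors. The MXD proteins, MXI1 and MNT take MAX into pairs that bring the SIN3 corepressor and histone deacetylases to the same sequences, and MGA pairs with MAX inside a Polycomb complex named PRC1.6. MLX is the relative of MAX that pairs with the glucose-responsive factors MLXIP and MLXIPL and with some of the antagonists. The balance of activating and repressing pairs is known for setting growth and the exit from the cell cycle, including in progenitors of cerebellar granule neurons.

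RNA sequencing was carried out on 7 tumors, 3 controls and 4 labelled WDR11OE for the enforced expression of human WDR11. All 7 came from a single tumorsphere line, # 19568, grown from granule neuron progenitors that lacked Trp53 and Cdkn2c and carried an MSCV retrovirus with Myc and, behind an IRES, GFP. The controls received the empty lentivirus by the protocol, although their treatment is listed as none, and the WDR11OE cells received WDR11 behind the EF1 promoter with a GFP reporter. Cells were not sorted for infection, and the RNA came from tumor pieces grown in the cortex of CD1 nu/nu mice and taken when the mice were moribund, so cells of the host can be present. The methods give an age, that of young adults, for the mice in which the model was first raised, and none of their own for these recipients.

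Total counts were 33417175 to 41397427 in the controls and 32116095 to 87141305 in the libraries labelled WDR11OE. Levels are given as CPM, the reads of a gene relative to the TMM-scaled size of its library. A row for human WDR11 checked the labels. It was at 2.03, 2.19 and 3.13 CPM in control replicates 1, 2 and 3 and at 4.38, 2.11, 3.05 and 0.624 CPM in the libraries labelled WDR11OE 1, 2, 3 and 4. Of these, only WDR11OE 1 was above every control and WDR11OE 4 was below every control, and the log2 fold change was 0.05 (SE 0.58, edgeR adjusted p = 0.961). WDR11OE 2 and 3 lay within the range of the controls, which themselves held 73, 92 and 102 reads on this row. The row therefore did not separate the groups and did not bear out the label of WDR11OE 4. It cannot settle the label of any single library, and every direction given here compares libraries by their labels. The authors reported raised WDR11 transcript by qRT-PCR in tumors of this line, and WDR11 protein by immunofluorescence in tumorspheres grown from such tumors. Whether the sequenced tumors were among them is not stated. Mouse Wdr11 had a log2 fold change of 0.16 (SE 0.06, edgeR adjusted p = 0.091). Reads were counted on Trp53, at 48.4 CPM in the controls and 32.7 CPM in WDR11OE, and on Cdkn2c, at 16.2 and 21.6 CPM. Counts per gene do not separate transcripts of a deleted allele from those of host cells. Of the 7 markers of the granule lineage, Atoh1 was at 0 in all 7 tumors and Barhl1 and Nhlh1 were under 1 CPM, while Pax6 was at 20.9 CPM in the controls and 21.4 CPM in WDR11OE, Zic1 at 10.1 and 7.07 CPM and Zic2 at 3.35 and 5.76 CPM. Of the 5 markers of the G3 list Otx2 and Crx were under 1 CPM. Npr3 was at 7.02 CPM in the controls and 4.85 CPM in WDR11OE, and Impg2 at 0.933 and 1.06 CPM. Gabra5 was at 1.44 and 3.55 CPM, with 10.9 CPM in WDR11OE 4. The sum of the G3 list overlapped, at 7.81 to 11.6 CPM in the controls and 5.10 to 18.8 CPM in WDR11OE. None of its 3 tested genes passed an adjusted p under 0.05. The libraries of each condition were numbered in a series of their own, so series and condition cannot be told apart.

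Across the network, 6 of the 10 genes were lower in the libraries labelled WDR11OE, 1 was higher and 3 did not pass an adjusted p under 0.05. The genes that fell were Myc, Max, Mxd1, Mxd3, Mxi1 and Mnt, and the gene that rose was Mga. Mycn, Mxd4 and Mlx did not pass. Of all 17389 genes tested, 33.9% passed, 15.8% lower and 18.1% higher. The members were chosen with earlier results of these data known, so these shares describe the network and do not test it. The median log2 fold change, WDR11OE over control, was -0.38 over the members and 0.09 over all genes tested. A 2-fold call, which also requires a mean log2 CPM above 0, was met by Myc and Mnt, both lower, against 3.36% of all genes lower, 2.19% higher and 5.55% in either direction. The values of the groups did not overlap for 8 members, 7 of them lower and 1 higher, whereas over all genes 42.7% did not overlap, 19.1% lower and 23.5% higher. The libraries labelled WDR11OE 2 and 4 were left out in a check chosen after seeing the data. Their level on the human WDR11 row was below that of at least 2 of the 3 controls. WDR11OE 3, which was below control replicate 3 only on that row, was kept in the check. Without WDR11OE 2 and 4, 2 of the 10 members passed, Myc and Mnt, both lower, a share near the 18.6% of all genes that passed in that fit. WDR11OE 1 and 2, whose titles share a number, were also summed to 1 library. Myc, Mxd1 and Mnt were then lower, the other 7 did not pass, and 21.7% of all genes passed. Without control replicate 3 or without WDR11OE 1, 3 members were lower, while 26.4% and 20.9% of all genes passed. Without WDR11OE 1 or 2 Mga did not pass. With the trend of the fold changes on GC content removed, 5 members were lower, Mga did not pass, and 23% of all genes passed.

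**Figure D1:**
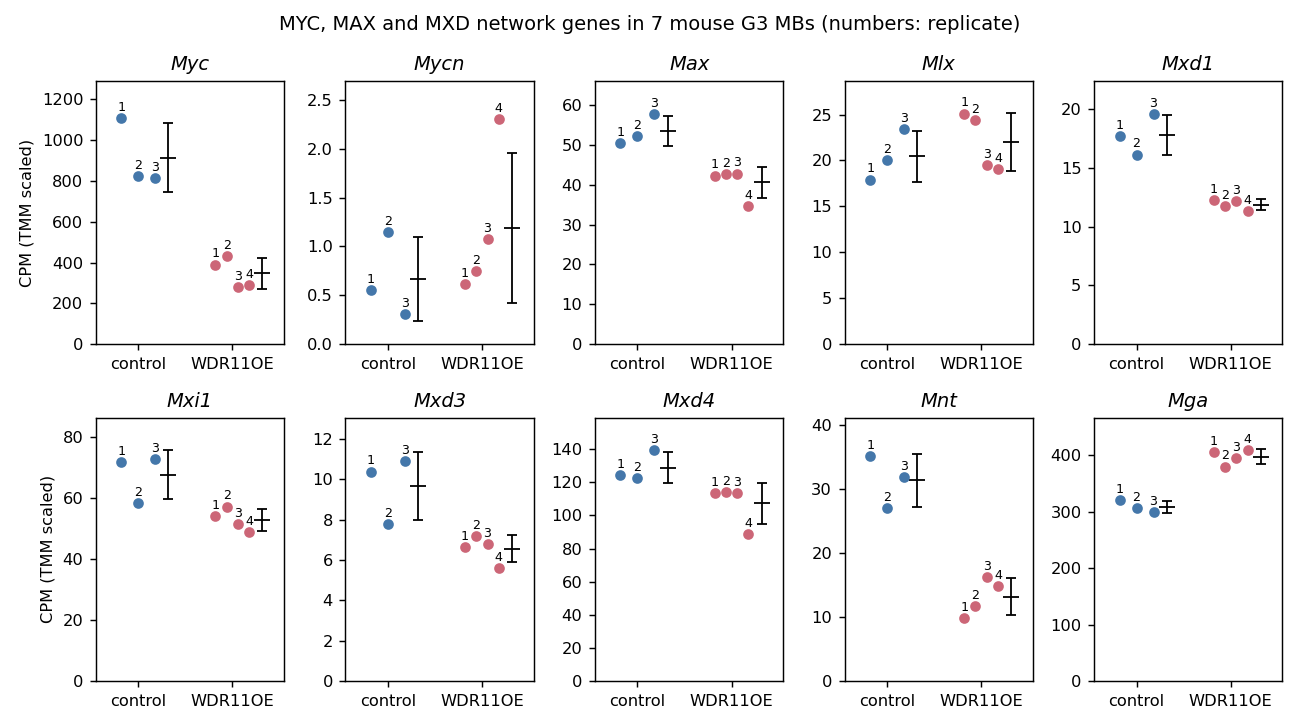
Level of each network gene in CPM (TMM scaled, vertical axes from 0) in the 3 control and 4 WDR11OE tumors, with the replicate number above each point and bars for the mean and SD of each group. The WDR11OE points lie below all control points for Myc, Max, Mxd1, Mxd3, Mxd4, Mxi1 and Mnt, and above them for Mga. For Mycn and Mlx the groups overlap, with WDR11OE 4 above all controls for Mycn and WDR11OE 1 and 2 above them for Mlx.

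Several markers of other cells moved with the labels. The summed level of 6 skeletal muscle genes was 1.38 to 1.97 CPM in the controls and 34.4 to 106 CPM in WDR11OE, and all 6 were higher. The sum of 6 neural progenitor genes was 556 to 677 CPM in the controls and 363 to 404 CPM in WDR11OE, with 3 of 6 lower, and that of 5 endothelial genes was 109 to 138 CPM and 82.2 to 92.7 CPM, with 2 of 5 lower. Over all genes tested, 15.8% were lower and 18.1% higher. The sums of the granule lineage, G3, neuron, astrocyte, oligodendrocyte, microglia and macrophage, and erythroid lists overlapped between the labels. In these lists 1 neuron gene was lower and no other gene passed. The part of the markers in the differences of the network genes was not tested. In pieces of tumor, fewer cells of a type and less RNA per cell cannot be told apart.

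Pairs with MAX bind the E-box CACGTG, and the promoters of the network genes were searched for these letters on both strands, which read the same. The windows came from RefSeq (GRCm38.p6) and covered 250 bases before to 50 bases after a transcript start. The letters stood in the windows of 4 of the 9 members with an entry, Max, Mxd4, Mnt and Mlx, and in 2349 of all 32851 windows (7.15%), or of 2187 of 27025 genes (8.09%). Myc had no entry. The 30 bases around each match are printed from 5′ to 3′ on the strand of the gene, with the E-box in capitals, because they place the motif in a member that fell by over 2-fold, in a member that fell by less, and in 2 that did not pass. The matches began 3 bases before the start in Max (chr12:76962234-76962263, minus strand), 219 bases before it in Mxd4 (chr5:34187912-34187941, minus strand), 123 in Mnt (chr11:74830789-74830818, plus strand) and 40 in Mlx (chr11:101087238-101087267, plus strand).
Max: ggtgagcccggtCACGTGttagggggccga
Mxd4: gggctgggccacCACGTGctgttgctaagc
Mnt: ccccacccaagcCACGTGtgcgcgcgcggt
Mlx: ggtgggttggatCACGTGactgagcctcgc
The match is a description of these windows. The windows of Mycn, Mxd1, Mxd3, Mxi1 and Mga did not hold the letters, which says nothing about binding elsewhere.

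Myc, the driver of the model and the activating member of the network, was the most abundant of the 10 genes and fell most. It was measured at 1109, 821 and 812 CPM in the controls and at 390, 431, 278 and 289 CPM in WDR11OE 1 to 4. The highest WDR11OE tumor was well below the lowest control, and the means were 914 ± 169 CPM (SD, n = 3) and 347 ± 75.5 CPM (SD, n = 4). The log2 fold change was -1.40 (SE 0.20, edgeR adjusted p = 0.00227), and a two-sided exact permutation test over the 35 splits of the tumors gave p = 0.0286, the smallest it allows. Single tumors left out moved this value between -1.56 and -1.24, and the call held under all 18 alternatives. Myc (ENSMUSG00000022346) lies at chromosome 15, 61816946 to 61821929, on the plus strand in NCBIM37, the build of the counts. Reads of the retroviral Myc and of the resident gene fall on the same row and cannot be told apart.

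Pvt1, a noncoding RNA gene that starts downstream of Myc (chromosome 15, 61869542 to 62209651), was added after its values were seen. It was measured at 18.8, 15.2 and 12.5 CPM in the controls and at 21.9, 20.7, 19.5 and 17.3 CPM in WDR11OE. Control replicate 1 lay above WDR11OE 4, so the groups overlapped, and the log2 fold change of 0.36 did not pass (SE 0.16, edgeR adjusted p = 0.128). Its estimate thus stood on the other side of 0 from that of Myc.

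Mycn, the MYC paralog of neural progenitors, was near the limit of what was counted. It was at 0.556, 1.14 and 0.306 CPM in the controls, from 20, 48 and 10 reads, and at 0.616, 0.749, 1.08 and 2.30 CPM in WDR11OE, from 26, 60, 35 and 210 reads. WDR11OE 4 stood highest and the other 3 lay within the range of the controls. Its log2 fold change was 0.82 (SE 0.61, edgeR adjusted p = 0.348, two-sided exact permutation p = 0.314), and without WDR11OE 4 it was 0.26 (edgeR adjusted p = 0.724). WDR11OE 4 also held the highest sums of neuron markers (638 CPM, against 21.5 to 201 in the other WDR11OE tumors and 87.4 to 473 in the controls) and of astrocyte markers (696 CPM). Their part in the level of Mycn was not tested. Mycn made up 0.0311% to 0.115% of the summed Myc and Mycn level per exon length in the controls and 0.130% to 0.653% in WDR11OE. This share also moves with the level of Myc, which was lower in every WDR11OE tumor than in any control.

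Mycl, the remaining MYC paralog, is listed under its older symbol Mycl1 and is not among the 10. It was at 8.31, 12.1 and 14.5 CPM in the controls and at 11.5, 11.2, 9.55 and 13.5 CPM in WDR11OE. The groups overlapped throughout, and the log2 fold change was -0.02 (SE 0.21, edgeR adjusted p = 0.945), a difference whose sign turned under 6 of the 18 alternatives.

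Max, the shared partner of the activators and antagonists, was measured at 50.5, 52.2 and 57.8 CPM in the controls and at 42.3, 42.6, 42.8 and 34.7 CPM in WDR11OE. The first 3 WDR11OE tumors were nearly level and the fourth was lower, all below the controls. The WDR11OE mean was 0.759 of the control mean, a log2 fold change of -0.40 (SE 0.10, edgeR adjusted p = 0.0175), which was smaller in size than that of Myc. The call was lost without control replicate 3 (edgeR adjusted p = 0.0617), without WDR11OE 1 (0.0652), without WDR11OE 2 (0.0527) and with these 2 summed to 1 library (0.0608), while the direction held.

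The difference of Mlx, the MAX-like factor, was within its spread. The gene was at 17.9, 20.1 and 23.4 CPM in the controls and at 25.1, 24.4, 19.5 and 19.1 CPM in WDR11OE, so that WDR11OE 1 and 2 lay above all controls and WDR11OE 3 and 4 among them. This gave a log2 fold change of 0.11 (SE 0.15, edgeR adjusted p = 0.628). The Mlx row overlaps Psmc3ip on the opposite strand by 385 bases, and Psmc3ip had a log2 fold change of 0.77 (edgeR adjusted p = 0.0064). The strand setting of the counting is not given in the sources used here, so reads of such a pair cannot be told apart.

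Of the antagonists, Mnt fell most. Mnt is the broadly expressed antagonist that pairs with MAX in dividing and resting cells alike. It was at 35.2, 27.0 and 31.9 CPM in the controls and at 9.88, 11.6, 16.2 and 14.8 CPM in WDR11OE, and even the highest WDR11OE tumor was below the lowest control. The means were 31.4 ± 4.11 CPM (SD, n = 3) and 13.1 ± 2.89 CPM (SD, n = 4), and the log2 fold change was -1.25 (SE 0.19, edgeR adjusted p = 0.00286, two-sided exact permutation p = 0.0286). Its exons are 59.4% GC, at the 94.1 percentile of the genes tested. Over 17125 genes the log2 fold change fell with GC content (Spearman's rho = -0.34 across genes, which are not independent replicates), and at the GC content of Mnt this trend stood at -0.25. With the trend removed the log2 fold change of Mnt was -1.04 (edgeR adjusted p = 0.00538), and its call held under all 18 alternatives.

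Mga, the scaffold of PRC1.6 and the largest of these proteins, moved the other way. It was at 320, 306 and 299 CPM in the controls and at 406, 380, 394 and 410 CPM in WDR11OE. Every WDR11OE tumor was above every control and the spread in each group was small, with means of 308 ± 11.0 CPM (SD, n = 3) and 398 ± 13.5 CPM (SD, n = 4). Mga had a log2 fold change of 0.37 (SE 0.07, edgeR adjusted p = 0.00681, two-sided exact permutation p = 0.0286). The exons of Mga are 42.0% GC, at the 11.3 percentile, where the trend over all genes stood at 0.35. With the GC trend removed its log2 fold change was -0.01 (edgeR adjusted p = 0.949), so the direction of Mga rests on that choice. The call was also lost without WDR11OE 1 (edgeR adjusted p = 0.0663) and without WDR11OE 2 (0.0511).

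**Figure D2:**
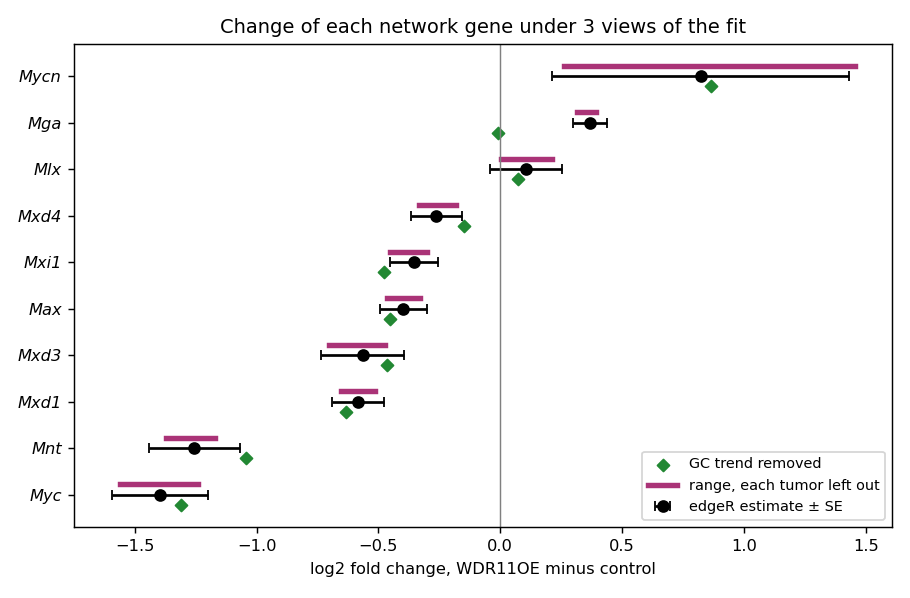
Log2 fold change of each network gene, WDR11OE over control, with the edgeR estimate and its SE (black), the range with each tumor left out in turn (purple bar) and the estimate after removal of the GC trend (green diamond). Myc and Mnt stay below -1 in all of these, and Mga moves from 0.37 to -0.01 when the trend is removed.

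Mxd1, which is known for its induction as cells leave the cycle, was at 17.7, 16.1 and 19.6 CPM in the controls and at 12.3, 11.7, 12.2 and 11.3 CPM in WDR11OE. The WDR11OE tumors lay close together below all controls, and the log2 fold change was -0.58 (SE 0.11, edgeR adjusted p = 0.00597). The call of Mxd1 held with any single tumor left out, and it missed the threshold with both WDR11OE 2 and 4 left out (edgeR adjusted p = 0.0528).

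Mxd3 is the member of the MXD family known from proliferating progenitors. It was at 10.4, 7.77 and 10.9 CPM in the controls and at 6.65, 7.17, 6.78 and 5.61 CPM in WDR11OE. Control replicate 2 stood nearer to WDR11OE 2 than to the other controls, although the groups did not overlap. The log2 fold change of -0.56 passed narrowly (SE 0.17, edgeR adjusted p = 0.039). Leaving out any tumor other than control replicate 2 ended the call, with adjusted p at 0.102 and 0.12 without control replicates 1 and 3 and at 0.0994, 0.0698, 0.0775 and 0.0646 without WDR11OE 1, 2, 3 and 4. With the GC trend removed the log2 fold change was -0.46 (edgeR adjusted p = 0.123). Mxd3 overlaps Prelid1 on the opposite strand by 104 bases, and Prelid1 was also lower (log2 fold change -0.48, edgeR adjusted p = 0.0268).

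Mxi1, also known as MAD2, was at 71.9, 58.3 and 72.8 CPM in the controls and at 54.1, 57.3, 51.5 and 48.8 CPM in WDR11OE. Control replicate 2 and WDR11OE 2 were within about 1 CPM of each other, and the groups did not overlap. Mxi1 fell with a log2 fold change of -0.35 (SE 0.10, edgeR adjusted p = 0.0293). The call was lost without control replicate 1 (edgeR adjusted p = 0.0861) or 3 (0.0942) and without WDR11OE 1 (0.0855), 3 (0.0697) or 4 (0.0526).

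Mxd4, the antagonist with the highest level per exon length in the controls, was at 124, 122 and 139 CPM in the controls and at 113, 114, 113 and 88.9 CPM in WDR11OE. All WDR11OE tumors were below all controls and WDR11OE 4 was the lowest. A log2 fold change of -0.26 (SE 0.11) did not pass (edgeR adjusted p = 0.0987, two-sided exact permutation p = 0.0286). Scaled by library size alone, it passed (edgeR adjusted p = 0.0491).

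To compare levels between genes, CPM were divided by exon length in kilobases (RPKM). In the controls the order of the mean levels was Myc at 336 RPKM, Mxd4 at 33.2, Max at 26.7, Mga at 20.1, Mxi1 at 12, Mlx at 10.2, Mnt at 6.78, Mxd3 at 4.66, Mxd1 at 3.82 and Mycn at 0.203 RPKM. The ranges of the 3 controls overlapped between the neighbors Mxi1 and Mlx and between Mxd3 and Mxd1, and between no other neighbors among these 10. In WDR11OE the order was Myc at 128 RPKM, Mxd4 at 27.7, Mga at 25.9, Max at 20.3, Mlx at 11.0, Mxi1 at 9.42, Mxd3 at 3.15, Mnt at 2.84, Mxd1 at 2.55 and Mycn at 0.360 RPKM. Mga thus stood above Max in WDR11OE and below it in the controls, in ranges that did not overlap in either group. These levels were not corrected for the GC trend, and with that trend removed the log2 fold change of Mga was -0.01. Neighbors whose ranges did overlap in WDR11OE were Mxd4 and Mga, Mlx and Mxi1, Mxd3 and Mnt, and Mnt and Mxd1. Myc ranked at the 99.4 percentile of 14919 coding genes in the controls and at the 98 percentile in WDR11OE, so it remained among the highest genes.

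Ratios of these levels within a tumor followed from the single genes and were not tested. Myc stood at 16.2, 11.6 and 10.4 times the level of Max in the controls and at 6.80, 7.47, 4.79 and 6.14 times in WDR11OE. The summed level of Mxd1, Mxd3, Mxd4, Mxi1, Mnt and Mga was 82.1, 74.9 and 84.7 RPKM in the controls and 73.3, 72.8, 73.4 and 66.6 RPKM in WDR11OE, a smaller difference than that of Myc. Myc and Mycn together were 4.97, 4.04 and 3.53 times this sum in the controls and 1.96, 2.18, 1.40 and 1.61 times in WDR11OE. The ratio of Mga to Mnt was 2.75, 3.42 and 2.82 in the controls and 12.4, 9.84, 7.34 and 8.34 in WDR11OE. None of these ratios overlapped between the labels. The ratios were not corrected for the GC trend, which stood at 0.35 at the GC content of Mga and at -0.25 at that of Mnt. With the length of the longest transcript in place of all exons, the mean ratio of Myc to Max was 14.8 in the controls and 7.32 in WDR11OE, and that of Mga to Mnt was 3.27 and 10.4.

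**Figure D3:**
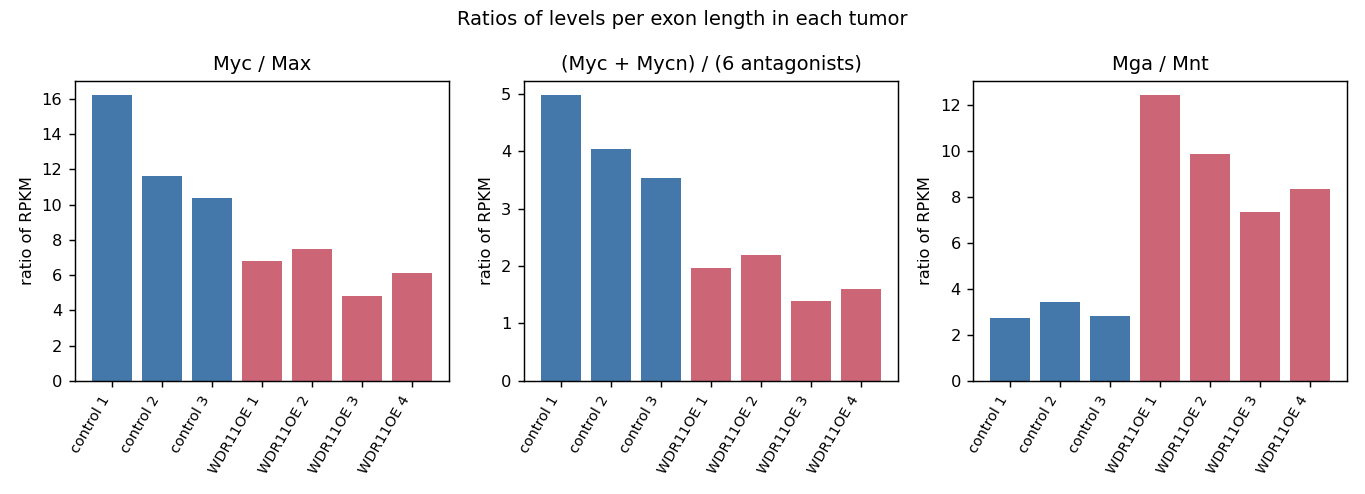
Ratios of RPKM in each tumor (bars from 0, 1 bar per tumor) for Myc over Max, for Myc plus Mycn over the 6 antagonists, and for Mga over Mnt. The first 2 ratios are lower in every WDR11OE tumor than in any control, and the ratio of Mga to Mnt is at least 7.34 in WDR11OE and at most 3.42 in the controls. The levels are not corrected for the GC trend.

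The levels of the members across the 7 tumors moved in part together, as a description that holds the difference between the labels. Pearson's r of log2 CPM was 0.988 between Mxd3 and Mxi1 and 0.961 between Max and Mxd4. Mga ran against most of the others, at -0.951 with Mxd1, -0.928 with Max and -0.917 with Myc, but not against Mycn (0.544) or Mlx (0.146). These levels were not corrected for the GC trend, without which the log2 fold change of Mga was -0.01. Mycn also ran against several members, at -0.877 with Mxd4 and -0.822 with Mxi1. Among 14516 other genes with a mean log2 CPM above 0, those most like Myc were Reep6 (r = 0.989), Ankrd27 (0.985), Jph1 (0.983), Actr1b (0.983) and Foxd2 (0.982). Those most like Mycn among 14517 were Stac3 (r = 0.985), Gabrg1 (0.982), Nxph1 (0.980), Gpr37l1 (0.980) and Csf2ra (0.979).

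The proteins that the network works with were described by lists. Beside each count stand the 33.9% of all genes that passed, 15.8% lower and 18.1% higher. Of 18 MYC coactivators and cofactors, 55.6% passed, 9 lower and 1 higher, the median log2 fold change was -0.37, and the count lower was also 9 with the GC trend removed. Kat2a, the acetyltransferase GCN5, went from 102 to 56.1 CPM in the mean (log2 fold change -0.86, SE 0.07, edgeR adjusted p = 0.000917), Cdk9, the kinase of P-TEFb, went from 50.1 to 28.0 CPM (-0.84, SE 0.10, edgeR adjusted p = 0.00145), and both held under all 18 alternatives. Actl6a, a subunit of the TIP60 and BAF complexes, rose (0.39, SE 0.11, edgeR adjusted p = 0.0297), a call lost without control replicate 1 (0.0947) or 2 (0.109) and without WDR11OE 1 (0.151), 2 (0.15) or 3 (0.0566). The call of Actl6a was also lost with the GC trend removed (0.24, edgeR adjusted p = 0.232).

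Of the 17 genes of the SIN3 and NCOR corepressors, to which the antagonists bind, 47.1% passed, 5 lower and 3 higher, with a median of -0.15, and the share higher was near that of all genes. Sap130 fell from 45.4 to 23.7 CPM (log2 fold change -0.94, SE 0.07, edgeR adjusted p = 0.000859), Ncor1 fell from 336 to 242 CPM (-0.48, SE 0.08, edgeR adjusted p = 0.00363), and both held under all 18 alternatives. Arid4b rose (0.51, SE 0.08, edgeR adjusted p = 0.00291) and lost its call with the GC trend removed (0.11, edgeR adjusted p = 0.351). The deacetylase gene Hdac2 rose (0.42, SE 0.10, edgeR adjusted p = 0.0184), a call lost with the GC trend removed (0.01, edgeR adjusted p = 0.971) and without control replicate 1 (0.0579) or 2 (0.0672) or WDR11OE 1 (0.12) or 2 (0.114). Sap30 rose (0.83, SE 0.21, edgeR adjusted p = 0.0203), a call lost without control replicate 1 (0.0664) or 2 (0.0713) or WDR11OE 1 (0.0904) or 2 (0.0819).

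Among 14 partners of MGA in PRC1.6, 28.6% passed, 2 lower and 2, Hdac2 and Cbx3, higher, with a median of -0.15, shares near those of all genes in each direction. E2f6, the DNA-binding subunit next to MGA, fell from 37.3 to 23.7 CPM (log2 fold change -0.65, SE 0.08, edgeR adjusted p = 0.00132) and held under all 18 alternatives. Its dimer partner Tfdp2 fell (-0.49, SE 0.12, edgeR adjusted p = 0.0201), a call lost without control replicate 1 (0.0634) or 3 (0.0683) or WDR11OE 1 (0.0504). Cbx3, which codes for HP1 gamma, rose (0.40, SE 0.11, edgeR adjusted p = 0.0299), a call lost without control replicate 1 (0.0946) or 2 (0.104) or WDR11OE 1 (0.131), 2 (0.141) or 3 (0.0685). The call of Cbx3 was also lost with the GC trend removed (0.18, edgeR adjusted p = 0.369). For MLX, 4 of 5 partners and targets were tested, and Mlxip, which codes for MondoA, fell from 50.7 to 28.3 CPM (log2 fold change -0.84, SE 0.16, edgeR adjusted p = 0.00617) under all 18 alternatives. The other 3 did not pass, and the median was -0.00.

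Of 16 genes for the turnover of MYC protein, 37.5% passed, 5 lower and 1 higher, with a median of -0.07. Gsk3b, the kinase that marks MYC for degradation, fell from 170 to 95.4 CPM (log2 fold change -0.83, SE 0.13, edgeR adjusted p = 0.00345), Usp36, a deubiquitinase that stabilizes MYC, fell from 89.0 to 58.3 CPM (-0.61, SE 0.09, edgeR adjusted p = 0.00278), and both held under all 18 alternatives. The ubiquitin ligase gene Trim32 fell as well (-0.34, SE 0.07, edgeR adjusted p = 0.00786). Cip2a, listed as C330027C09Rik, codes for an inhibitor of the phosphatase PP2A and rose (0.41, SE 0.10, edgeR adjusted p = 0.0174), but stood at -0.14 with the GC trend removed (edgeR adjusted p = 0.408) and lost its call without control replicate 2 (0.0628), WDR11OE 1 (0.0902) or WDR11OE 2 (0.0945).

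Of 30 genes that MYC is known to activate, 30% passed, near the share of all genes, 2 of them lower and 7 higher, with a median of 0.20. With the GC trend removed 2 passed, both higher, and with single tumors left out 0 to 3 were lower and 4 to 9 higher, the fewest higher without WDR11OE 1. Nop56 and Nop58, which code for core proteins of box C/D snoRNPs, rose from 280 to 409 CPM (log2 fold change 0.54, SE 0.09, edgeR adjusted p = 0.00408) and from 220 to 339 CPM (0.62, SE 0.11, edgeR adjusted p = 0.00477). Paics, an enzyme of purine synthesis, rose from 267 to 447 CPM (0.74, SE 0.13, edgeR adjusted p = 0.00477) and, like Nop56, held under all 18 alternatives, whereas Nop58 lost its call with the GC trend removed (0.25, edgeR adjusted p = 0.199). Cad, the enzyme that starts pyrimidine synthesis, fell (-0.64, SE 0.15, edgeR adjusted p = 0.016), a call lost without control replicate 2 (0.0528) or 3 (0.0519) or WDR11OE 1 (0.0603). Spermidine synthase, Srm, fell (-0.73, SE 0.18, edgeR adjusted p = 0.0198), a call lost without control replicate 2 (0.0545) or 3 (0.0718) or WDR11OE 1 (0.0712) or 3 (0.0523).

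Of 16 genes that MYC is known to repress, 25% passed, 4 lower, and the other 12 did not pass, with a median of -0.26. Klf4, a factor of differentiation, fell from 39.3 to 15.0 CPM (log2 fold change -1.39, SE 0.18, edgeR adjusted p = 0.00163), Thbs1, which codes for thrombospondin, fell from 22.3 to 11.4 CPM (-0.96, SE 0.19, edgeR adjusted p = 0.00785), and both held under all 18 alternatives. The cell cycle inhibitor gene Cdkn2b fell (-0.61, SE 0.17, edgeR adjusted p = 0.0292), a call lost without control replicate 2 (0.101) or WDR11OE 1 (0.0693), 2 (0.0612) or 3 (0.0737). With the GC trend removed the call of Cdkn2b was also lost (-0.5, edgeR adjusted p = 0.0985). Both lists of MYC targets were written from general knowledge and not from binding in this tumor.

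**Figure D4:**
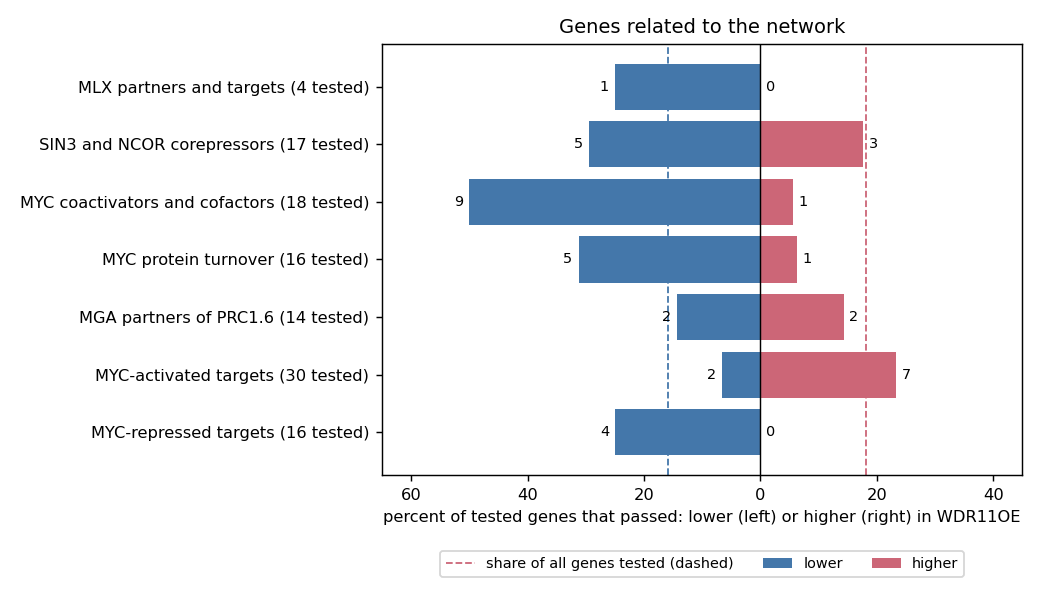
Share of the tested genes of each list that passed an adjusted p under 0.05, lower in WDR11OE to the left (blue) and higher to the right (red), with the number of genes at each bar and dashed lines at the shares over all genes tested, 15.8% and 18.1%. The 9 of 18 coactivators and cofactors form the longest bar to the left, and the 7 of 30 MYC-activated genes the longest to the right.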

How the data were processed

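RNA from 7 tumors was sequenced by the authors, mapped to NCBIM37 and counted per gene with HTSeq on a GENCODE annotation. The submitters' notes also name CASAVA 1.7, STAR and BWA, and the methods name stranded sequencing where the labels name a TruSeq kit. The authors deposited raw counts for 34592 rows without normalization, and their comparison by limma voom was not used here. The members and lists were chosen with earlier results of these data known.

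Counts were analysed in R 4.3.3 with edgeR 4.0.16. The filterByExpr filter left 17389 rows, scaled by TMM. The two-sided quasi-likelihood test with Benjamini-Hochberg adjustment over all of them had condition as its only term, and every adjusted p is from it. Log2 CPM used a prior count of 2. A 2-fold call was a gene under an adjusted p of 0.05 that moved by 1 or more in log2 fold change and had a mean log2 CPM above 0. Exon length and GC content came from GENCODE vM1 for 33606 rows (97.1%).

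The exact permutation test compared mean log2 CPM over all 35 splits. Labels do not say that the tumors within a group came from separate infections, so p-values measure the spread between these tumors. No library was a copy of another, since the lowest chi-square per degree of freedom of any pair was 21.1. That pair was WDR11OE 1 and 2, whose titles share a number, and its Pearson's r of 0.994 was the highest of any pair. The main test counts them as separate tumors, and the labels do not explain the shared number. Counting error weighs more on rows with few reads, such as Mycn with 10 reads in control replicate 3, than on rows with many. Reads carried no molecular identifiers. The biological coefficient of variation was 34.6%. The genes named are the members, checks of the model, the 5 genes most like Myc or Mycn, and up to 3 genes lower and 3 higher with the smallest p in each list, of which some are not reported here. Alternatives were limma 3.58.1 voom, DESeq2 1.42.0, other scalings and filters, removal of GC or length trends by loess, WDR11OE 1 and 2 summed because their titles share a number, and each tumor left out in turn. Leaving out WDR11OE 2 and 4 was added after seeing the data.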

Additional observations from a re-analysis of the deposited data

Results flagged for a closer look

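Max and Mxd4 each had a library far from the rest of its group, WDR11OE 4. Max was at 34.7 CPM there, and the nearest other WDR11OE tumor was at 42.3 CPM. In log2 CPM this gap was 0.94 of the range of the group. Mxd4 was at 88.9 CPM, the nearest was at 113 CPM, and the gap in log2 CPM was 0.976 of the range. Both gaps exceed the critical value of Dixon's test for 4 samples, which chance exceeds in about 1 in 20 groups, and 49 genes were checked. Without WDR11OE 4 the log2 fold change was -0.33 for Max (edgeR adjusted p = 0.016) and -0.18 for Mxd4 (edgeR adjusted p = 0.117).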

How the results depend on the processing

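The calls of Myc and Mnt, the 2 members past a 2-fold call, held under all 18 alternatives, and Mxd1 kept its call in 17 of 18. Max, Mga, Mxi1 and Mxd3 lost their calls in 5, 5, 8 and 10 alternatives, and Mxd4 passed in 1. With WDR11OE 1 and 2 summed, the adjusted p was 0.0608 for Max, 0.0585 for Mga, 0.0691 for Mxi1 and 0.0868 for Mxd3. With WDR11OE 2 and 4 left out, a choice made after seeing the data, it was 0.0672, 0.0618, 0.0959 and 0.148. The share of all genes that passed also moved, from 33.9% to 21.7% with WDR11OE 1 and 2 summed and to 18.6% with WDR11OE 2 and 4 left out. It was 23% with the GC trend removed, 27.6% with the length trend removed, and 20.9% to 34.5% with each tumor left out. The counts lower and higher moved as follows. Members numbered 3 lower and 0 higher with WDR11OE 1 and 2 summed, 2 and 0 with WDR11OE 2 and 4 left out, and 0 higher with the GC trend removed. Coactivators higher were 0 in those fits, with the length trend removed, with TMM without the 100 highest genes and with no filter, and 2 with library size or upper quartile scaling. PRC1.6 partners were 4 lower and 0 higher without the GC trend, 1 lower and 0 higher without WDR11OE 2 and 4, 0 higher with no filter, without the length trend and with WDR11OE 1 and 2 summed, and 1 higher with TMM without the 100 highest genes. Corepressors higher were 1 with WDR11OE 1 and 2 summed or the length trend removed. Turnover genes were 0 higher with no filter and with the sum, and 2 lower and 0 higher without WDR11OE 2 and 4. MYC-activated genes were 0 lower and 2 higher without the GC trend and 1 lower with the sum or without WDR11OE 2 and 4. MYC-repressed genes were 2 lower with the sum or without WDR11OE 2 and 4, and 1 higher with library size or upper quartile scaling. With each tumor left out, members lower ranged from 3 to 6 and higher from 0 to 1, corepressors higher from 1 to 3, coactivators higher from 0 to 1, turnover genes lower from 3 to 5 and higher from 0 to 2, PRC1.6 partners lower from 1 to 2 and higher from 0 to 2, MYC-activated genes lower from 0 to 3 and higher from 4 to 9, and MYC-repressed genes lower from 2 to 4.

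Signs turned for Mga (-0.01), Wdr11 (-0.088) and C330027C09Rik (-0.144) without the GC trend, for Mlx without the length trend (-0.066), and for Mycl1 with limma voom (0.048), upper quartile scaling (0.012), no GC trend (0.107), and without control replicate 2, control replicate 3 or WDR11OE 3, where the range with single tumors left out was -0.221 to 0.162. The cause was not tested. Over all genes 2744 were lower and 3150 higher, against 2687 and 1245 without the GC trend and 2833 and 1887 without the length trend, which moved the median log2 fold change from 0.09 to -0.02 in both. Prior count and transcript length changed no direction. No paired analysis was possible because the labels give no replicate numbers, and those used here follow accession order and pair no tumors.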
